A study of Mus musculus with 2 samples.

Results

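Sgk1, Fkbp5, Tsc22d3, Nr3c1, Nr3c2 and Cdkn1a are the 6 genes described here, out of 25618 genes shared by the count tables of both libraries. They comprise the receptors for corticosteroid hormones (Nr3c1 and Nr3c2), well known targets of the glucocorticoid receptor (Sgk1, Fkbp5 and Tsc22d3) and Cdkn1a, a cell cycle inhibitor that glucocorticoids and p53 both control. Their levels are given over oligodendrocyte-like, neuron-like, tanycyte-like, vascular and meningeal cells. The genes were picked with earlier results of these libraries known, and the values behind that choice were these same levels, so the genotype differences below are descriptions and carry no test.

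Cells came from the microdissected arcuate nucleus and median eminence, at the floor of the hypothalamus, of CD-1 mice aged 7 to 8 weeks. Sorted live cells went through Drop-seq, in which each droplet tags the 3' ends of 1 cell's transcripts with unique molecular identifiers (UMIs). A pool of 7 wild-type mice (WT) gave 1 library, and a pool of 6 mice of genotype Irx5-/- (Irx5KO), which lack the homeobox transcription factor Irx5, gave the other. Since each genotype is a single library, spread between replicates is unknown here, and all intervals reflect counting error only. The sources used here give neither the sex of the mice nor the hour of collection.

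After filtering, 1841 WT cells with 3960089 UMIs and 1949 Irx5KO cells with 4915775 UMIs remained, and the median cell held 1621 and 1692 UMIs. Irx5 had 13 UMIs in 11 WT cells and 0 in Irx5KO. Cells were grouped into classes by marker genes, and the suffix "-like" marks that the name rests on those markers. Of WT and Irx5KO cells, 192 and 116 were oligodendrocyte-like, 611 and 855 neuron-like, 310 and 445 tanycyte-like, and 129 and 142 resembled vascular leptomeningeal cells (VLMC-like), the fibroblasts of the meninges and vessel sheaths. Vessel walls gave 20 and 15 endothelial-like and 56 and 39 mural-like cells. A level is the gene's share of the class's UMIs in counts per 1000000 (CPM), and from such a sum alone fewer expressing cells and less RNA per cell cannot be told apart.

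Corticosterone, the main glucocorticoid of mice, enters cells and binds the glucocorticoid receptor (Nr3c1) or, at lower concentrations, the mineralocorticoid receptor (Nr3c2). The bound receptor moves to the nucleus, where pairs of receptors sit on a palindrome of 2 short arms separated by a spacer, and nearby genes are switched on. Sgk1 encodes a kinase that acts on ion channels, transporters and FoxO factors, and it is a classical early target of the receptor in many tissues, oligodendrocytes among them. Fkbp5 encodes a co-chaperone that lowers the receptor's affinity for hormone and so forms a feedback loop, and Tsc22d3 encodes GILZ, an anti-inflammatory leucine zipper protein. Cdkn1a encodes p21, which binds cyclin-dependent kinases and halts the cell cycle.

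Promoter windows of 300 bases, from 250 bases before to 50 after a transcript start, were taken from RefSeq (GRCm38.p6, the assembly also called mm10) for 5 of the 6 genes. Sgk1 has 6 such windows, Tsc22d3 has 3, Cdkn1a has 2, and Fkbp5 and Nr3c2 have 1 each. The palindrome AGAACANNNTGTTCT, the full form of the receptor's element, reads the same on both strands, and it was found in 1 Sgk1 window at chr10:21993640-21993939 on the plus strand. This sequence is shown because Sgk1 is the gene on which the oligodendrocyte result turns, with the palindrome in capitals:
Sgk1: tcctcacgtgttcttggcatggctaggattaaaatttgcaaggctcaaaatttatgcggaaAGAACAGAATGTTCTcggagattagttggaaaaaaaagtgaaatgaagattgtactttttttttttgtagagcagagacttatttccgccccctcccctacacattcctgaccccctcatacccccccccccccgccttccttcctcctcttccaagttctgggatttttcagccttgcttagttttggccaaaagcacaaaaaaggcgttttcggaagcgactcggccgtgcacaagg
The palindrome lies at chr10:21993701-21993715, with 174 bases between it and the transcript start at 21993890. No exon overlaps it, and 5 of the 13 annotated Sgk1 transcripts, which start further upstream, span it. Of 32851 promoter windows of this length in the table, 3 (0.00913%) hold the full palindrome and 156 (0.475%) hold the looser form GNACANNNTGTNC, which every full match also contains.

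Among the other glucocorticoid response genes with a window (31 genes), none held the full palindrome, and the looser form was found for Txnip, Map3k6 and Mt1. The Mt1 site, shown because Mt1 is described below in VLMC-like cells, reads ggacatgatgttc, lies at chr8:94178995-94179007 and has 81 bases between it and the start. A window of Cdkn1a at chr17:29090729-29091028, plus strand, held the letters CATGNNNNNNCATG, the core of the element bound by p53, which also read the same on both strands and occur in 234 windows (0.712%). It is printed with that core in capitals, since p53 is the best known regulator of Cdkn1a:
Cdkn1a: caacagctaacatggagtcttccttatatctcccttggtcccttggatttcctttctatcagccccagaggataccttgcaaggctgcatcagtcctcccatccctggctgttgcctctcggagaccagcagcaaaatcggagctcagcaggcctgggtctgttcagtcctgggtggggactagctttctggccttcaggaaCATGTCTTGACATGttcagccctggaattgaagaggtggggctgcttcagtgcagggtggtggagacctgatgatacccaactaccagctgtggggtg
These are matches of letters in a window and say nothing of whether a factor was bound in these cells.

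In oligodendrocyte-like cells, Sgk1 was 51.6 CPM in WT (95% Poisson interval 31.9 to 78.9, 21 UMIs) and 416 CPM in Irx5KO (342 to 501, 111 UMIs). The intervals do not overlap, and the Irx5KO level was 8.07-fold higher (exact conditional binomial 95% interval 5.03 to 13.6). Oligodendrocytes are the myelin-forming glia, and both sets of cells carried their 10 marker genes at a near equal sum, 132200 and 132000 CPM. Of the 2407 genes with at least 50 UMIs in this class, Sgk1 had the highest ratio of Irx5KO to WT (log2 ratio 3.01). The next highest gene was Marcks, with 10 and 43 UMIs (2.71). In the other direction Tulp3, with 74 and 2 UMIs, was further apart than Sgk1, at -4.60, and Gm10263 followed at -2.95. Since Sgk1 was chosen with this contrast known, nothing is read from its rank.

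More cells carried the transcript, and some of them carried many copies. An Sgk1 UMI was found in 20 of 192 WT cells (10.4%) and in 45 of 116 Irx5KO cells (38.8%), at median depths of 1850.5 and 1737.5 UMIs per cell. For thinned shares, here and below, cells with fewer than 1000 UMIs were left out and the others were thinned to 1000 UMIs. This left out 30 of the 192 WT and 16 of the 116 Irx5KO cells. The shares were then 4.32% (exact Clopper-Pearson 95% interval 1.76 to 8.70) of 162 cells and 26.0% (17.7 to 35.7) of 100 cells. In these deeper cells the difference thus remained at equal depth. For background, neuron-like cells gave 1.0% and 1.65% after thinning, at unthinned median depths of 2076 and 2386 UMIs. Pars tuberalis-like cells, the endocrine cells of the pituitary stalk, had no Sgk1 UMI in 88 WT and 46 Irx5KO cells. In WT 1 oligodendrocyte-like cell had 2 Sgk1 UMIs and none had more. In Irx5KO, 21 cells had 2 or more, and the highest cell had 13, which is 11.7% of the class's Sgk1 UMIs. Without the cell of most Sgk1 UMIs in each library, the log2 ratio was 2.99 against 3.01 with it.

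**Figure D1:**
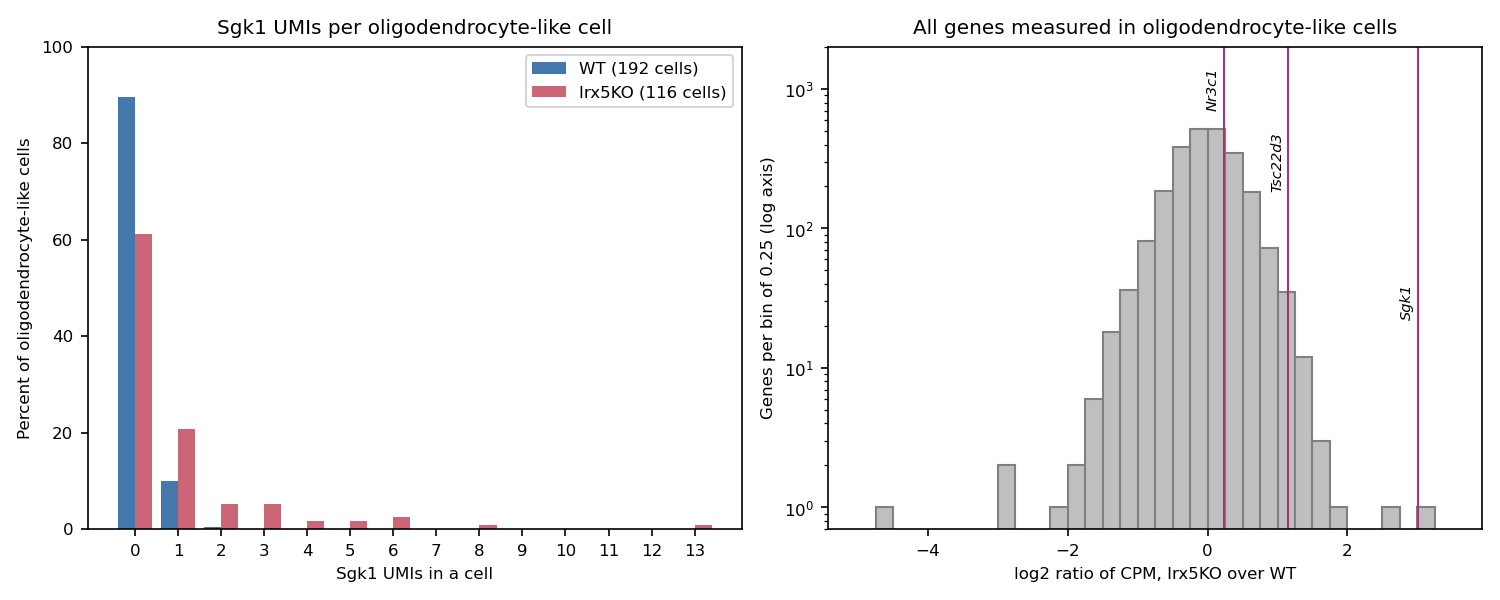
Left, percent of oligodendrocyte-like cells (y axis) by the number of Sgk1 UMIs in the cell (x axis) in WT and Irx5KO; WT cells stop at 2 UMIs and Irx5KO cells reach 13. Right, number of genes (log axis) by log2 ratio of CPM, Irx5KO over WT, for the 2407 genes measured in the class, with lines at Nr3c1 (0.23), Tsc22d3 (1.15) and Sgk1 (3.01), which lies in the last filled bin.

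Sgk1 was higher in Irx5KO in each of the 6 sub-clusters of oligodendrocyte-like cells, which had been formed without the 6 genes and without the other glucocorticoid response genes. In the sub-cluster led by Slc9a3r2 and Ttyh1 it had 23.2 CPM in WT (34 cells) and 356 CPM in Irx5KO (38 cells). The sub-cluster led by Klk6 and S100b, genes of a mature oligodendrocyte state, had 47.3 and 527 CPM. In the sub-cluster led by Fam171b and Rn7sk it had 37.0 and 426 CPM. These 3 sub-clusters had intervals that do not overlap. Cells led by the stress genes Dnajb1 and Fosb had 81.9 CPM in WT and 640 CPM in Irx5KO, also without overlap, though from 11 Irx5KO cells. The remaining sub-clusters, led by Mapt and by Apoe with Gng11, had 47.6 and 302 CPM and 100 and 307 CPM, with few UMIs and overlapping intervals. With all sub-clusters weighted alike the log2 ratio was 2.92, and without the sub-cluster led by Dnajb1 and Fosb it was 3.15.

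**Figure D2:**
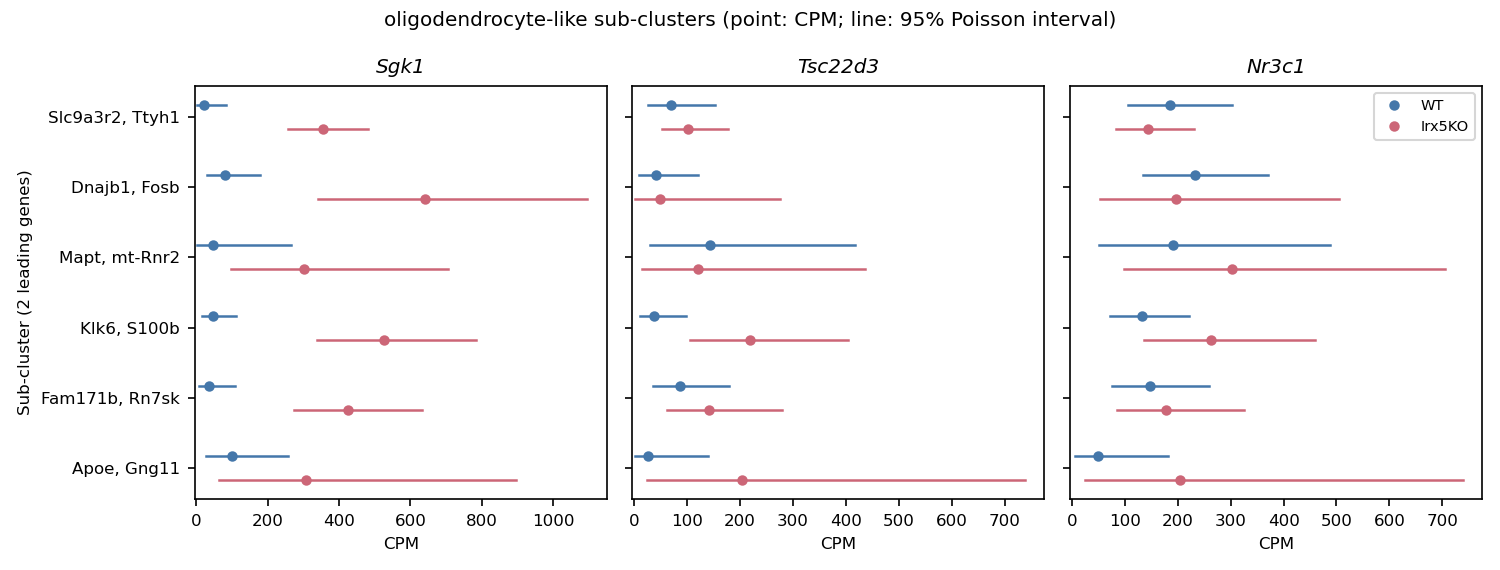
Level in CPM (x axis) of Sgk1, Tsc22d3 and Nr3c1 in the 6 oligodendrocyte-like sub-clusters (y axis, named by their 2 leading genes), with WT in blue and Irx5KO in red; points are CPM and lines exact Poisson 95% intervals. Sgk1 runs from 23.2 to 100 CPM in WT and from 302 to 640 CPM in Irx5KO.

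Tsc22d3 was also higher in Irx5KO oligodendrocyte-like cells, though by less. It had 59.0 CPM in WT (37.8 to 87.7, 24 UMIs) and 131 CPM in Irx5KO (91.4 to 183, 35 UMIs), a ratio of 2.23 (1.29 to 3.91). The call ended when only cells with at most the median UMIs of the class were used, where the log2 ratio was 0.42 against 1.15 in all cells. Sgk1 was 2.78 in those cells. In Irx5KO, Tsc22d3 had 233 CPM in the 45 cells with an Sgk1 UMI and 75.5 CPM in those without, at median depths of 1871 and 1614 UMIs. In WT the levels were 57.2 and 59.2 CPM, from 3 and 21 UMIs. These splits rest on 22 Tsc22d3-positive cells in Irx5KO and 21 in WT.

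The glucocorticoid receptor itself differed little in this class. Nr3c1 had 160 CPM in WT (65 UMIs) and 187 CPM in Irx5KO (50 UMIs), with a ratio of 1.17 (0.796 to 1.72), and in cells with at most the median UMIs the log2 ratio was 1.01. Thinned shares of cells with an Nr3c1 UMI were 16.0% and 17%. Nr3c2 had 4 and 1 UMIs, and Cdkn1a had 12 and 6 UMIs (29.5 and 22.5 CPM). Fkbp5 had no UMI in any oligodendrocyte-like cell of either library, and after thinning 0 of 162 WT and 0 of 100 Irx5KO cells had one, where 3 cells would be 1.85% and 3.0% and the exact Clopper-Pearson upper limits are 2.25% and 3.62%, so the co-chaperone's transcript was not detectable at this depth. Of the 3 genes of the 6 with at least 50 UMIs in this class, 2 (Sgk1 and Tsc22d3) were at least 1.5-fold higher in Irx5KO, where 9.18% of all genes measured were (19.9% were 1.5-fold apart in either direction). Since the genes were chosen with this contrast known, nothing is read from that count.

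Sgk2, a close relative of Sgk1, was nearly limited to this class. It had 5 UMIs in WT (12.3 CPM) and 21 in Irx5KO (78.7 CPM), a ratio of 6.41 (2.35 to 21.8), out of 6 and 23 UMIs in all cells. Of the Irx5KO UMIs, 15 lay in the sub-cluster led by Slc9a3r2 and Ttyh1. Sgk3, the third kinase of the family, had 4 and 2 UMIs in oligodendrocyte-like cells. Of 20 genes for the Sgk family, its regulators and substrates, 4 were measured here and none was 1.5-fold apart, beside 19.9% of all genes, and 4 genes are too few to read against that share. Ndrg1, a substrate used to read out the kinase's activity, had 850 and 952 CPM.

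Earlier stages of the lineage carried Sgk1 in both libraries. Committed precursors (COP-like cells, 19 and 14) had 384 CPM in WT (246 to 571) and 645 CPM in Irx5KO (369 to 1047). Oligodendrocyte precursors (OPC-like cells, 187 and 78) had 94.0 and 127 CPM, with a ratio of 1.35 (0.648 to 2.70). In OPC-like cells Nr3c1 was the 1 gene of the 6 measured and was not 1.5-fold apart (177 and 217 CPM), beside 8.13% of all genes higher and 14.4% lower (22.5% in either direction). In WT, Sgk1 thus stood higher in COP-like than in oligodendrocyte-like cells without overlap of the intervals, while in Irx5KO the intervals of these classes overlapped. The WT COP-like level rests on 24 UMIs in 10 cells, of which 2 cells held 6 each. After thinning, the shares of WT cells with an Sgk1 UMI were 23.5% (6.81 to 49.9) in COP-like and 4.32% (1.76 to 8.70) in oligodendrocyte-like cells, and these intervals overlap. Summed markers of precursor stages were also higher within the Irx5KO oligodendrocyte-like cells, though not every marker was. The 9 OPC markers summed to 1103 CPM in WT and 2152 CPM in Irx5KO, 5 of them higher, with C1ql1 at 0 in both. Most of that sum was Olig1 (919 and 1672 CPM) and Olig2 (118 and 364 CPM), which oligodendrocytes also express, while Pdgfra had 1 and 2 UMIs and Gpr17, which is in both precursor lists, 3 and 17. Matn4 went the other way, with 18 and 9 UMIs (44.2 and 33.8 CPM), and Cspg4 had 1 and 0. The 8 COP markers summed to 472 and 697 CPM, 5 of them higher, with Bmp4 at 0 in both and Tcf7l2 lower at 7 and 3 UMIs. Markers of other types also differed: those of neurons summed to 592 and 810 CPM (11 of 14 higher), of tanycytes to 381 and 495 CPM (8 of 12 higher) and of astrocytes to 211 and 293 CPM (6 of 11 higher). Microglial markers summed to 81.1 and 48.8 CPM and endothelial markers to 17.2 and 11.3 CPM, while macrophage and epithelial markers were at 0. The part of these markers in the Sgk1 difference was not tested.

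In neuron-like cells the 6 genes were present at low levels, and Nr3c1 varied between neuron sub-clusters. Over the whole class Nr3c1 had 97.7 CPM in WT (172 UMIs) and 115 CPM in Irx5KO (337 UMIs), a ratio of 1.17 (0.975 to 1.42). The sub-cluster led by Npy and Agrp, the hunger-promoting neurons of the arcuate nucleus, was the highest of 11, with 209 CPM in WT (126 to 326) and 279 CPM in Irx5KO (214 to 359), and its interval overlapped those of most sub-clusters in WT but in Irx5KO only that of the sub-cluster led by Egr1 and Penk. At the other end, the sub-cluster led by Vip and Nms, peptides of the suprachiasmatic clock, had 4.51 CPM in WT (0.114 to 25.1) and 17.1 CPM in Irx5KO (3.53 to 50). Its interval lay below those of all other sub-clusters in WT and overlapped some in Irx5KO. That is 1 UMI in 94 WT cells and 3 UMIs in 63 Irx5KO cells, at median depths of 1929.5 and 2391 UMIs, against 19 UMIs in 15 and 61 in 41 cells of the Npy and Agrp sub-cluster at 3502 and 3573. The remaining 9 sub-clusters lay between 76.8 and 141 CPM in WT and between 55.7 and 152 CPM in Irx5KO. The sub-cluster led by Ttr and Oxt had 141 CPM in WT (92.1 to 207) and 55.7 CPM in Irx5KO (34.0 to 86.0), the only one of the 11 whose Nr3c1 intervals did not overlap between the libraries.

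Targets of the receptor in neurons followed no common direction. Fkbp5 had 13.6 CPM in WT (24 UMIs) and 20.8 CPM in Irx5KO (61 UMIs), a ratio of 1.53 (0.937 to 2.56). That value sits at the 1.5-fold mark, and TMM scaling (log2 ratio 0.57) or median-of-ratios scaling (0.56) put it below. Cdkn1a had 11.4 CPM in WT (20 UMIs) and 19.4 CPM in Irx5KO (57 UMIs), a ratio of 1.71 (1.01 to 3.0), and in cells with at most the median UMIs its log2 ratio was 1.64 against 0.77 in all. Its direction differed between sub-clusters: that led by Pdyn and Cck (28 and 74 cells) had 25.7 and 67.0 CPM from 2 and 16 UMIs, that led by Npy and Agrp 32.9 and 4.58 CPM from 3 and 1, and that led by Cartpt 39.4 and 5.0 CPM from 6 and 1. The libraries also drew their neuron-like cells from different sub-clusters, such as 70 and 187 cells from that led by Npvf, and the part of this in the class ratios was not tested. Tsc22d3 had 51.7 CPM in WT (91 UMIs) and 38.2 CPM in Irx5KO (112 UMIs), a ratio of 0.738 (0.555 to 0.985). Sgk1 had 11.9 and 13.3 CPM, and its log2 ratio of 0.16 turned to -0.42 in cells with at most the median UMIs and passed 1.5-fold, at 0.74, where classes came from a marker score per cell. Its highest sub-cluster had 77.3 and 46.0 CPM and was that led by Pdyn and Cck. Nr3c2, from 11 and 18 UMIs, had 6.25 and 6.13 CPM. Of the 5 genes measured in neuron-like cells, 2 (Fkbp5 and Cdkn1a) were at least 1.5-fold higher, beside 12% of all 10750 genes, and none was as far lower, beside 6.38% (18.4% in either direction). Median depth was higher in Irx5KO neuron-like cells, at 2386 against 2076 UMIs, and after thinning the shares of cells with a Fkbp5 UMI were 1.80% and 2.34% and with a Cdkn1a UMI 0.800% and 1.93%.

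**Figure D3:**
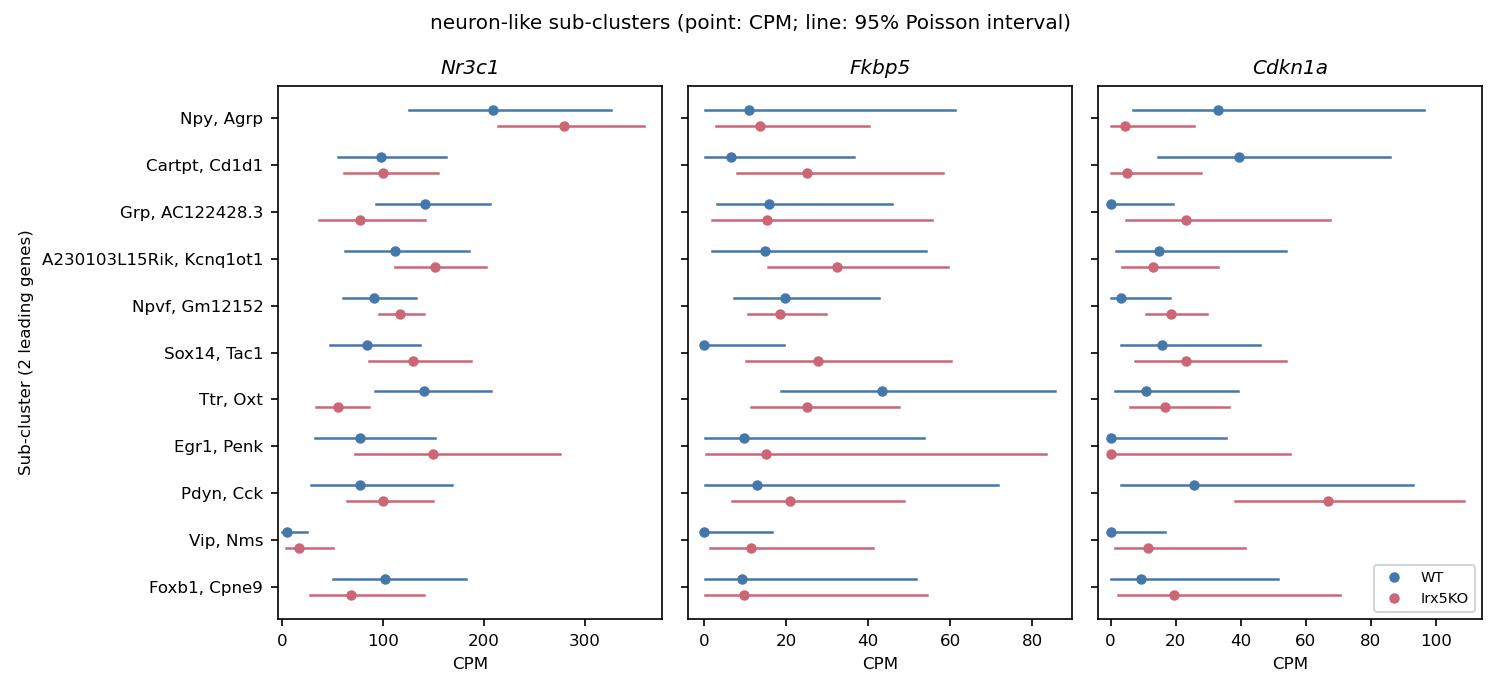
Level in CPM (x axis) of Nr3c1, Fkbp5 and Cdkn1a in the 11 neuron-like sub-clusters (y axis, named by their 2 leading genes), WT in blue and Irx5KO in red, with exact Poisson 95% intervals. Nr3c1 is highest in the Npy and Agrp sub-cluster (209 and 279 CPM) and lowest in the Vip and Nms sub-cluster (4.51 and 17.1 CPM).

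Tanycyte-like cells, elongated ependymal glia at the base of the ventricle, carried Tsc22d3 and Nr3c1 at similar levels in both libraries. Tsc22d3 had 142 CPM in WT (114 to 175, 87 UMIs) and 156 CPM in Irx5KO (131 to 185, 132 UMIs). Nr3c1 had 158 CPM (128 to 193, 97 UMIs) and 199 CPM (170 to 231, 168 UMIs), a ratio of 1.26 (0.972 to 1.63). Cdkn1a had 40.8 CPM from 25 UMIs and 50.8 CPM from 43 UMIs, and its direction turned with the filter, since the log2 ratio was 0.32 in all cells and -0.74 in cells with at least 800 genes. For Sgk1 the levels were 24.5 and 22.5 CPM, from 15 and 19 UMIs, though in cells with at most the median UMIs its log2 ratio was 2.29 against -0.12 in all. Fkbp5 had 26.1 and 22.5 CPM. None of the 3 genes measured (Tsc22d3, Nr3c1 and Cdkn1a) was 1.5-fold apart, beside 19.1% of all 5802 genes. No class was named for astrocytes, and the larger tanycyte-like cluster (234 and 342 cells) had marker scores of 3.51 for tanycytes and 3.48 for astrocytes. Astrocyte markers within the class summed to 5273 and 7364 CPM (11 of 11 higher). Tanycyte markers summed to 17680 and 18190 CPM (8 of 12 higher) and ependymal markers to 2141 and 1560 CPM (2 of 10 higher). The part of these markers in the levels was not tested. The ratio of Sgk1 in oligodendrocyte-like cells (5.03 to 13.6) and in tanycyte-like cells (0.442 to 1.94) had intervals that do not overlap, as was so for neuron-like cells (0.640 to 1.99).

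VLMC-like cells had the highest Tsc22d3 of the named classes in both libraries, with 387 CPM in WT (300 to 493, 66 UMIs) and 367 CPM in Irx5KO (285 to 466, 68 UMIs). They also held the highest Fkbp5 in WT, at 76.3 CPM (13 UMIs), beside 81.0 CPM in Irx5KO (15 UMIs). Neither differed between the libraries beyond counting error, though Tsc22d3 had a log2 ratio of -0.86 in cells with at most the median UMIs. Sgk1 went the opposite way to oligodendrocyte-like cells: it had 176 CPM in WT (119 to 251, 30 UMIs) and 64.8 CPM in Irx5KO (33.5 to 113, 12 UMIs), 2.72-fold lower (1.35 to 5.83). With cells of at most the median UMIs the log2 ratio was -0.33 against -1.44 in all. The 42 UMIs are under the 50 at which a difference was counted. Nr3c1 had 241 CPM in WT (41 UMIs) and 157 CPM in Irx5KO (29 UMIs), 1.54-fold lower with an interval that includes 1 (0.932 to 2.56), and its direction turned in cells with at most the median UMIs, to 0.26. Of the 2 genes measured (Tsc22d3 and Nr3c1), 1 was at least 1.5-fold lower, beside 15% of 1348 genes (27.2% apart in either direction). Endothelial markers within the class summed to 217 and 583 CPM (6 of 11 higher, Pecam1, Esam, Plvap and Tek at 0 in both), mural markers to 294 and 486 CPM (7 of 11 higher, Higd1b and Myh11 at 0 in both), and VLMC markers to 63530 and 66040 CPM, and their part in these differences was not tested.

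Endothelial-like and mural-like cells, which line and wrap the vessels, were few, and their intervals are wide. Endothelial-like cells had Sgk1 at 189 CPM in WT (61.3 to 440, 5 UMIs) and 574 CPM in Irx5KO (286 to 1026, 11 UMIs), overlapping. They had the highest Cdkn1a of the named classes in both libraries, at 340 CPM in WT (155 to 645, 9 UMIs) and 834 CPM in Irx5KO (477 to 1355, 16 UMIs), and 1 Irx5KO cell gave 56.3% of those UMIs. In endothelial-like cells with at most the median UMIs the log2 ratio of Cdkn1a turned to -1.15, against 1.30 in all. Red blood cell markers summed to 18370 CPM in WT and 52.1 CPM in Irx5KO endothelial-like cells and microglial markers to 1924 and 52.1 CPM, none of the 5 and 10 markers being higher in Irx5KO, and their part in these levels was not tested. Mural-like cells had Cdkn1a at 278 and 209 CPM and Sgk1 at 43.8 and 83.7 CPM. Fkbp5 had no UMI in either class of either library, and Nr3c2 had none in endothelial-like cells.

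**Figure D4:**
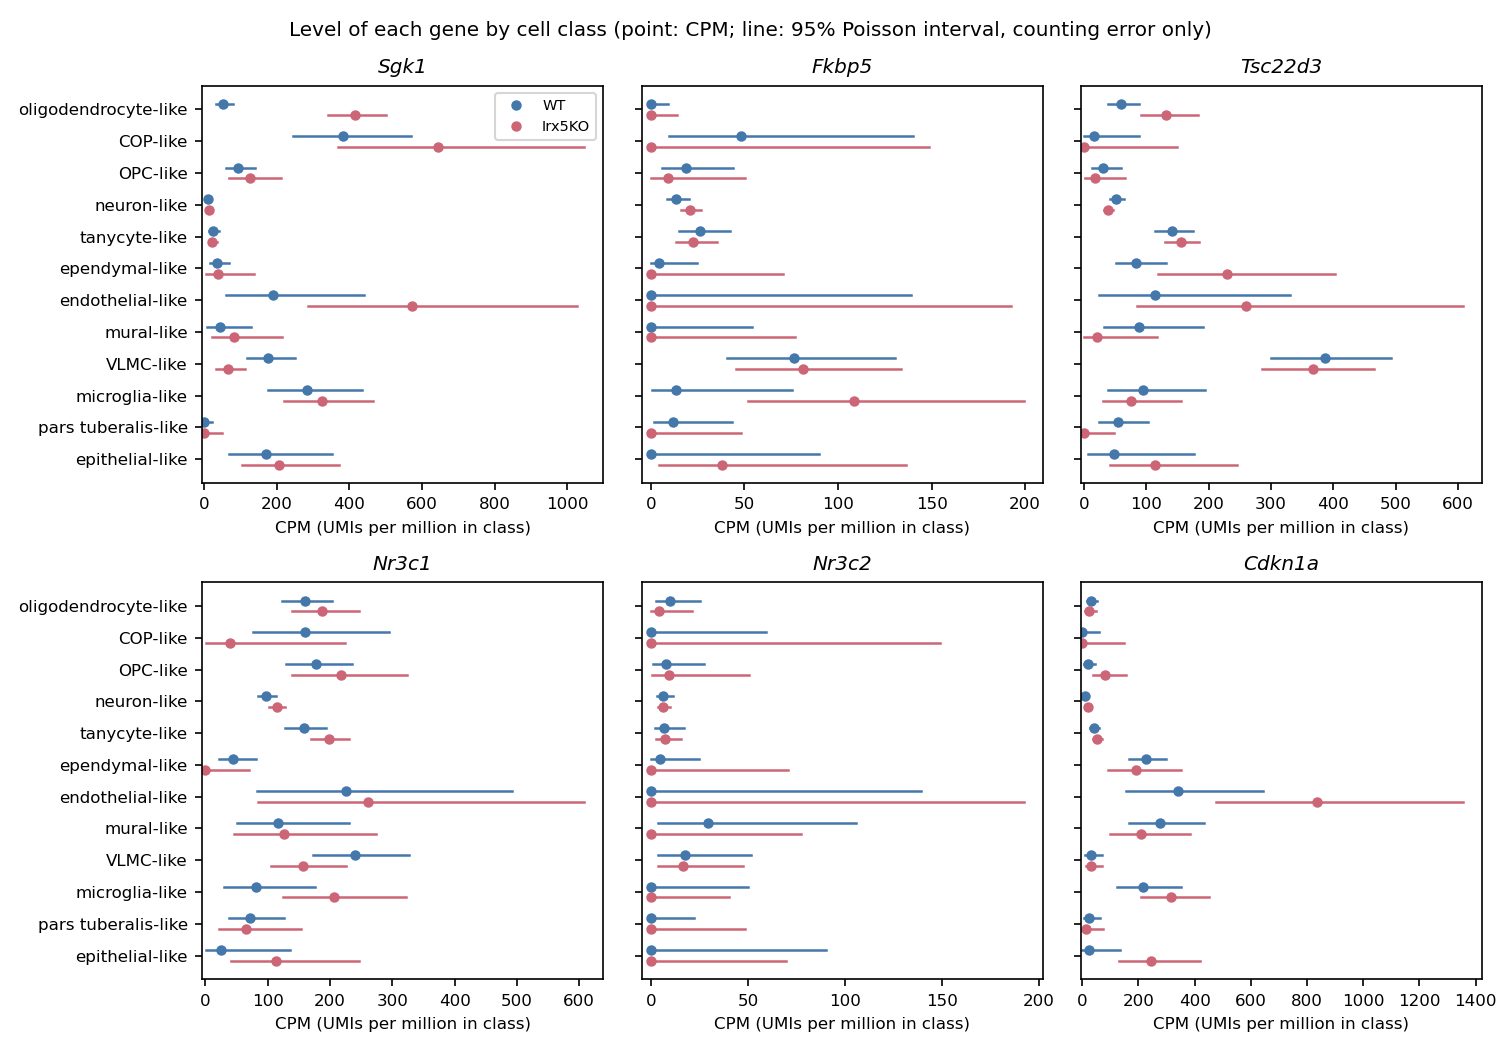
Level in CPM (x axis, a separate range for each gene) of the 6 genes in the named cell classes (y axis), WT in blue and Irx5KO in red; points are CPM and lines exact Poisson 95% intervals. The separated pair for Sgk1 in oligodendrocyte-like cells (51.6 and 416 CPM) and the separated pair in the opposite direction in VLMC-like cells (176 and 64.8 CPM) stand beside overlapping pairs in neuron-like and tanycyte-like cells.

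Ordered over the named classes, Sgk1 in WT was highest in COP-like cells (384 CPM), microglia-like cells (284), endothelial-like cells (189) and VLMC-like cells (176), and lowest in neuron-like cells (11.9) and pars tuberalis-like cells (0). In Irx5KO the order began with COP-like (645), endothelial-like (574), oligodendrocyte-like (416) and microglia-like cells (325). Sgk1 was the 1 gene of the 6 measured in microglia-like cells, the resident immune cells, and was not 1.5-fold apart there, beside 31.7% of all 458 genes (17% higher and 14.6% lower). Neighbours in these orders mostly could not be told apart by their intervals. The exceptions over all 6 genes and both libraries were 3: Tsc22d3 in WT VLMC-like cells stood clear of the next class, Cdkn1a in WT microglia-like cells (216 CPM) stood clear of the class below it, and Cdkn1a in Irx5KO endothelial-like cells stood clear of all others. That endothelial-like level rests on 16 UMIs, 56.3% of them from 1 cell, which its interval does not take into account. Nr3c2 had 28 WT and 30 Irx5KO UMIs in total, too few to order. Over all cells together Sgk1 was 48.7 and 57.2 CPM, a ratio of 1.17 (0.973 to 1.42), and Tsc22d3 was 83.1 and 83.6 CPM, so the class differences above are not visible in the sum.

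**Figure D5:**
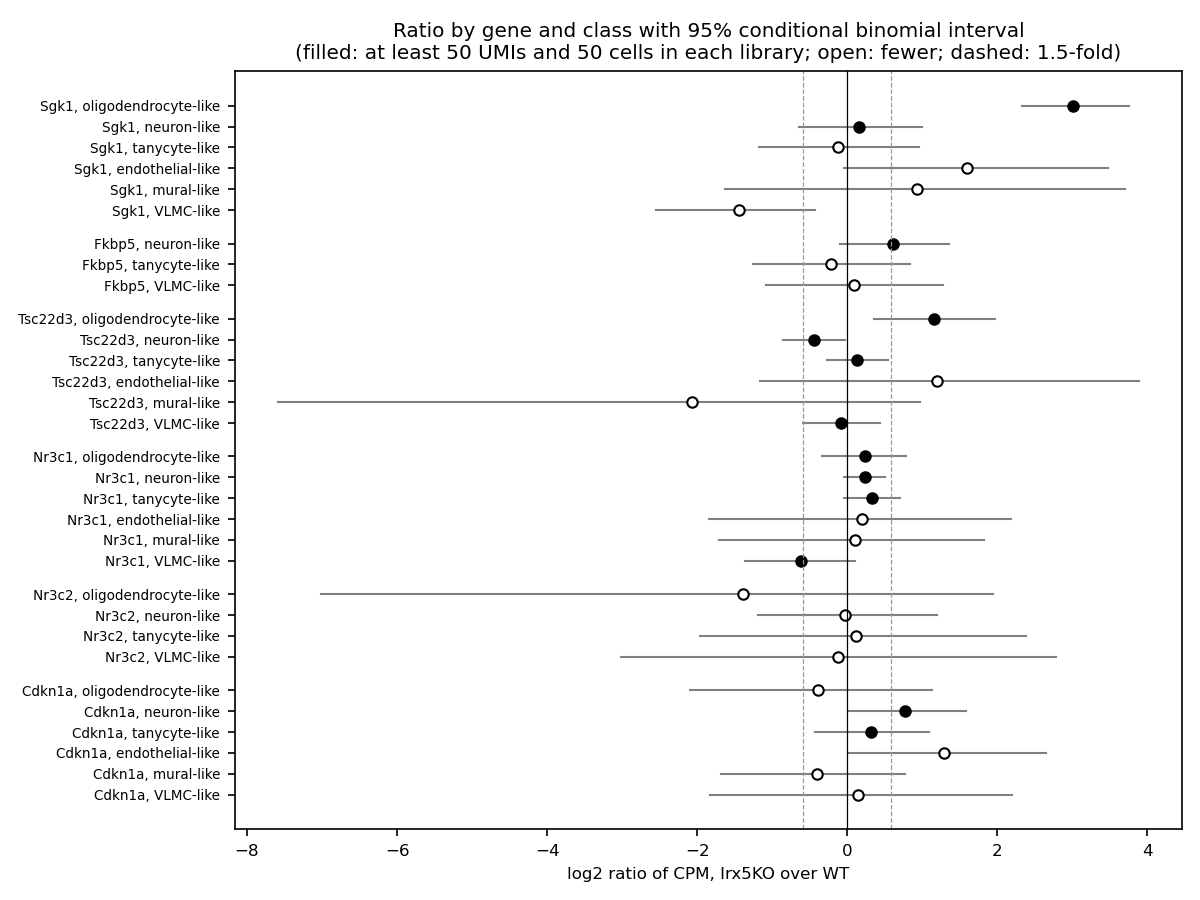
Log2 ratio of CPM, Irx5KO over WT (x axis), for each gene and class (y axis) where both libraries had a UMI, with exact conditional binomial 95% intervals. Filled points have at least 50 UMIs over both libraries together and at least 50 cells in each, open points fewer, and dashed lines mark 1.5-fold. Sgk1 lies at 3.01 in oligodendrocyte-like cells and at -1.44 in VLMC-like cells, while most other intervals cross 0.

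Across 20 units of class and library with at least 20 cells, the genes whose level followed each of the 6 most closely were found by Pearson's r of log2(CPM + 10) among 6200 genes, as a description, since the units share libraries, depth and cell lineage. For Sgk1 they were Tmsb4x (r = 0.796), Coro1b (0.747) and Wasf2 (0.747). For Tsc22d3 they were Ctsl (0.776), Add3 (0.740) and S100a6 (0.739), for Nr3c1 Tmem14c (0.879), Snhg5 (0.813) and Ing1 (0.807), and for Cdkn1a Msn (0.780), Tmpo (0.768) and Kpna4 (0.756). Among the genes described here the likeness was weaker: Sgk1 had r = 0.355 with Tsc22d3, 0.376 with Nr3c1 and 0.480 with Cdkn1a, and Nr3c1 with Tsc22d3 had -0.01. Fkbp5 and Nr3c2 had too few UMIs to be compared.

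Other glucocorticoid response genes lay on both sides of no difference. Of 37 such genes, 36 were in the tables. In oligodendrocyte-like cells 13 were measured, 4 at least 1.5-fold higher in Irx5KO and 2 lower, where 9.18% of all 2407 genes were higher and 10.7% lower, and their median log2 ratio was -0.03 beside -0.01 for all genes. Htra1, a secreted protease, had 73.7 and 165 CPM (ratio 2.24, 1.38 to 3.69), while Errfi1, an inhibitor of EGF receptor signalling, was 2.22-fold lower (1.17 to 4.49) and Gadd45g, a stress and growth arrest gene, 2.06-fold lower (1.11 to 4.07). The other genes that were higher, named after their values were seen, were Nfkbia, an inhibitor of NF-kB (54.0 and 105 CPM), the transcription factor Klf9 (76.1 and 124 CPM) and the metallothionein Mt2 (140 and 221 CPM). In neuron-like cells 0 of 15 measured were higher, beside 12% of all genes, and 1 lower, beside 6.38%: Cdkn1c, with 19.3 and 11.6 CPM. In tanycyte-like cells 0 of 18 were higher, beside 10.7% of all genes, and 2 lower, beside 8.45%: Angptl4, a lipase inhibitor, had 55.4 and 18.9 CPM and Zfp36, which speeds mRNA decay, 222 and 123 CPM.

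In VLMC-like cells 3 of 15 measured glucocorticoid response genes were higher, beside 12.2% of all genes, and 3 lower, beside 15%. The metallothioneins Mt1 and Mt2, metal-binding proteins that zinc and glucocorticoids both induce, had 264 and 2133 CPM (ratio 8.07, 5.92 to 11.3) and 88.1 and 1669 CPM (18.9, 11.3 to 34.3), against the direction of Sgk1 in the same cells. Gadd45g was 3.26-fold lower (2.57 to 4.16), from 1655 to 508 CPM. Hsd11b1, the enzyme that regenerates active corticosterone inside cells, had 188 and 324 CPM (ratio 1.73, 1.11 to 2.74).

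Among genes that fold, carry or assist the receptor, from 1 to 2 per class were 1.5-fold apart, beside 19.9% of all genes in oligodendrocyte-like, 18.4% in neuron-like, 19.1% in tanycyte-like and 27.2% in VLMC-like cells. Of 7 measured in oligodendrocyte-like cells none was higher and 1 lower, Smarca4, a chromatin remodeller, with 93.3 and 56.2 CPM. In neuron-like cells 1 of 14 was lower, the coactivator Ncoa3 (18.2 and 9.54 CPM), and in tanycyte-like cells 2 of 10 were lower, the chaperone Hsp90aa1 (2079 and 1261 CPM) and the coactivator Ncoa1 (50.6 and 30.7 CPM). In VLMC-like cells 1 of 6 was higher, Hsd11b1. Of the kinase pathway around Sgk1, tanycyte-like cells had 7 genes measured and 1 higher, Ndrg1 (39.1 and 61.5 CPM), beside 10.7% of all genes, and VLMC-like cells had 1 measured, Gsk3b (135 and 189 CPM), under 1.5-fold.

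Other p53 targets and cell cycle inhibitors are the neighbours of Cdkn1a in function. Of 12 other p53 targets measured in neuron-like cells none was higher and 1 was lower, Gadd45a, with 48.3 and 28.3 CPM, beside 12% of all genes higher and 6.38% lower. In tanycyte-like cells, where 8.45% of all genes were lower, 2 of 5 were, Gadd45a (124 and 63.8 CPM) and Rrm2b (55.4 and 33.1 CPM). Oligodendrocyte-like cells had 1 of 3 lower, beside 10.7%, Btg2 (157 and 56.2 CPM). VLMC-like cells had Gadd45a higher (176 and 319 CPM) and Plk2 lower (346 and 157 CPM), of 2 measured, beside 12.2% of all genes higher and 15% lower. These counts are too small to set against those shares. Among other cyclin-dependent kinase inhibitors, 1 of 3 was lower in neuron-like cells, Cdkn1c, and none was 1.5-fold apart of 2 in oligodendrocyte-like, 3 in tanycyte-like and 1 in VLMC-like cells.

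Genes that respond within minutes to cell dissociation were lower in the Irx5KO oligodendrocyte-like cells in which Sgk1 was higher. Of 7 immediate early genes measured, none was higher and 5 were lower by 1.5-fold or more, beside 10.7% of all genes, and their median log2 ratio was -0.89: Fos had 2690 and 1425 CPM and Jun 1471 and 615 CPM. Of 11 heat shock genes 4 were lower and 0 higher, Dnajb1 with 489 and 199 CPM and Hspa1a with 1363 and 694 CPM. Of 23 genes of the mature oligodendrocyte state, 2 were higher, beside 9.18% of all genes, with Opalin at 997 and 1721 CPM, and 5 lower, beside 10.7%, with S100b at 1125 and 529 CPM. In other classes, immediate early genes gave 1 higher and 2 lower of 16 in neuron-like cells. In tanycyte-like cells 4 of 17 were lower, and in VLMC-like cells, where Sgk1 was lower too, 3 of 12. Heat shock genes were lower for 3 of 12, 4 of 14 and 3 of 10 in these classes, with 1 higher in tanycyte-like cells. The shares of all genes that were lower are 6.38% in neuron-like, 8.45% in tanycyte-like and 15% in VLMC-like cells. The shares higher are 12%, 10.7% and 12.2%. OPC-like cells (8.13% of all genes higher, 14.4% lower) had 1 immediate early gene higher and 1 lower of 4. Of their 9 heat shock genes 3 were lower. Microglia-like cells (17% and 14.6%) had 1 higher and 4 lower of 9, and 2 of 5 heat shock genes were higher. Median log2 ratios of immediate early genes were -0.23 in neuron-like, -0.36 in tanycyte-like and -0.18 in VLMC-like cells. All genes measured there had medians of 0.07, 0.03 and -0.02. Heat shock genes had -0.09, -0.25 and -0.26 there, and -0.51 in oligodendrocyte-like cells. OPC-like cells had -0.18 and -0.45 for the same lists, and microglia-like cells -0.04 and 0.16. Lower medians were thus not limited to oligodendrocyte-like cells. In every class the counts of genes are small to set against those shares. The part of dissociation in the Sgk1 difference was not tested. Over all genes in oligodendrocyte-like cells, 46.2% of those 1.5-fold apart were higher in Irx5KO, and TMM scaling put this at 32.4% and median-of-ratios scaling at 34.2%, by moving the log2 ratios of the class by 0.10 and 0.08.

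The 6 genes lie on 5 chromosomes of mm10 by GENCODE M21. Sgk1 spans chr10:21882184-21999903 on the plus strand, Cdkn1a chr17:29090976-29100727 (plus), Nr3c2 chr8:76899442-77245012 (plus), Fkbp5 chr17:28399094-28517527 (minus), Tsc22d3 chrX:140539528-140600659 (minus) and Nr3c1 chr18:39410545-39519421 (minus). Sgk1, Tsc22d3 and Nr3c1 overlap no other annotated gene, while Fkbp5 overlaps 4, Nr3c2 overlaps 3 and Cdkn1a overlaps 1, mostly short or non-coding, and the sources used here do not say whether counting used strand. Of 50-base words in the last 500 bases of their transcripts, 0.232% for Sgk1, 0.75% for Fkbp5 and 0.165% for Nr3c1 also occur in another gene on the same strand, and none for the other 3.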

How the data were processed

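For WT, the deposited values are whole UMI counts. For Irx5KO, and for a table that joins both libraries, the values deposited by the authors are on a natural log scale, where 1 was added after scaling each barcode's counts to a sum of 10000; this was read from the values, and the analysis had been planned for counts in both. Exponentiating gave whole UMIs within 1e-06 for 100% of values, and 0 of 4275938 WT UMIs differed between the merged and the WT table. Picard, bcl2fastq, Seurat 3, STAR 2.6.0b and the mm10 build are listed per the submitters' processing notes, without settings. The libraries shared 1 barcode.

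Barcodes needed 500 genes or more and no more than 20% mitochondrial UMIs, and doublets called by the Scrublet method were removed (10 of 1851 WT and 23 of 1972 Irx5KO cells). Leiden clusters (2000 variable genes, 30 principal components, 15 neighbours, resolution 1) took a class name where its markers scored highest (at least 1) with at least 3 of them 2-fold up and no more markers of another class among the 10 leading genes; 2 of 20 stayed unnamed. UMIs were summed per class and library. A gene counts as measured with at least 50 UMIs over both libraries in a class of at least 50 cells in each, and as apart at 1.5-fold, which is a size and no test. Named genes are the 6 genes, Sgk2 and Sgk3, and per list and class up to 3 measured genes at least 1.5-fold apart ranked by the bound closer to 1 of their ratio's interval, or else up to 2 with most UMIs. Marcks, Tulp3, Gm10263, marker genes and gene names of clusters stand outside this rule and were chosen after their values were seen. The 6 genes and all lists were chosen with earlier results of these data known. The ratio intervals were tried on Poisson counts simulated from the oligodendrocyte-like profile, which is the spread that they assume. Spread between cells or libraries was not simulated, so that trial says nothing of it. Scanpy 1.11.5, igraph 0.11.9, scipy 1.17.1 and numpy 2.4.6 under Python 3.11.15 were used. The result of the Sgk1 pathway list in neuron-like cells is not reported here.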

Additional observations from a re-analysis of the deposited data

Results flagged for a closer look

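Sgk1 and Tsc22d3 differed between the libraries in opposite directions in different cell classes, with intervals on opposite sides of no difference. The log2 ratio of Sgk1, Irx5KO over WT, was 3.01 in oligodendrocyte-like cells and -1.44 in VLMC-like cells. For Tsc22d3 it was 1.15 in oligodendrocyte-like cells and 1.45 in ependymal-like cells (19 and 12 UMIs, 124 and 35 cells), and -0.44 in neuron-like cells. These values were picked because their intervals exclude no difference. Sgk1 in VLMC-like cells (30 and 12 UMIs) and Tsc22d3 in ependymal-like cells had too few UMIs to count as measured. The Sgk1 value in VLMC-like cells shrank to -0.33 in cells with at most the median UMIs. Tsc22d3 in neuron-like cells was under 1.5-fold apart. With 1 library per genotype, the difference between classes was not tested.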

How the results depend on the processing

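Sgk1 in oligodendrocyte-like cells stayed between 2.78 and 3.15 (log2 ratio) over 18 alternatives, and Tsc22d3 kept its call in 17 of 18, from 0.42 to 1.35. Fkbp5 in neuron-like cells kept its call in 10 of 17 alternatives, from 0.44 to 0.81, and Cdkn1a there in 17 of 17. Not all alternatives were free to differ. Removing called doublets in both libraries repeated the main setting. A mitochondrial limit of 10%, resolution 0.5 or 2, and clustering without the glucocorticoid genes kept the same 192 and 116 oligodendrocyte-like cells. These tallies therefore overstate how far the processing was varied. Using only cells with at most the median UMIs of the class, chosen after seeing the data, moved Cdkn1a in neuron-like cells to 1.64 and in tanycyte-like cells to 1.16, Nr3c1 in oligodendrocyte-like cells to 1.01 and in VLMC-like cells to 0.26, a reversal, and Tsc22d3 in VLMC-like cells to -0.86. Cdkn1a in tanycyte-like cells was -0.74 in cells with at least 800 genes and -0.51 at clustering resolution 0.5. The cause was not tested. Of all alternatives, 4 were chosen after seeing the data. TMM scaling removed a shift of 0.17 from the log2 ratios of endothelial-like and 0.14 from those of mural-like cells, and median-of-ratios scaling one of 0.24 in endothelial-like cells. No paired analysis was possible because each genotype has 1 library. Alternatives that left a library with 0 UMIs of a gene gave no ratio. Depth limits the result: in endothelial-like and mural-like cells at most 19 UMIs of any of the 6 genes were counted in a library.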

Other observations

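Outside the named classes, 18 WT and 34 Irx5KO cells (0.978% and 1.74% of cells) formed an unnamed cluster led by Krt17, Cyp2f2, Cbr2 and Krt5, of which the keratins are known from stratified epithelia. In it Sgk1 had 474 CPM in WT from 13 UMIs and 186 CPM in Irx5KO from 10 UMIs, while Tsc22d3 had 72.9 CPM from 2 UMIs and 503 CPM from 27 UMIs. The other unnamed cluster, led by Tac2 and Kiss1, peptides of arcuate reproductive neurons, held 16 and 42 cells (0.869% and 2.15%). Sgk1 had 0 and 2 UMIs there, and Fkbp5 had 2 and 7 UMIs, or 39.6 and 45.5 CPM. Among small named classes, microglia-like cells had 1 and 10 UMIs of Fkbp5 (ratio 8.03, 1.14 to 348), OPC-like cells 5 and 9 UMIs of Cdkn1a (4.33, 1.30 to 16.5), and epithelial-like cells 1 and 13 UMIs of Cdkn1a (10.1, 1.51 to 427).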
